A study of Gallus gallus with 66 samples.

Results

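FABP4, FABP5, CD36 and LPL, 4 genes that carry fatty acids into cells or through them, were followed in chicken preadipocytes across 22 groups of 3 arrays. Their members were every probe set that the platform annotation gives to one of these symbols alone, 6 of 38535 probe sets on the array. Of the 6, 5 passed the filter on dim signal and were among the 22060 probe sets tested. FABP4 and LPL have 1 probe set each. CD36 has 2 that pass the filter. FABP5 has 1 that passes and 1 that does not. Probe sets were taken by gene symbol, and the 4 genes were chosen with earlier results of these data known.

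The cells came from abdominal fat of 2 chicken lines, called lean and fat after their content of that tissue. Fat of 15 males of each line, 10 days old, was pooled and digested with collagenase, floating adipocytes were discarded and red cells were lysed. In both lines the groups were uncultured cells, cultures passaged once at 50% confluence (called −12 h), cultures at 95% confluence (0 h), and cells 12, 24, 72 or 120 h after that, each time in control medium or with oleate at 160 µg/ml. Oleate is the salt of a monounsaturated long-chain fatty acid. Since each line was 1 pool and the 3 arrays of a group are called biological replicates with no word on separate pools or dishes, p-values measure the spread between these arrays and not between birds.

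Long-chain fatty acids reach a fat cell mostly in lipoproteins or bound to albumin. Lipoprotein lipase, the product of LPL, is secreted and splits lipoprotein triglyceride at the vessel wall. CD36 is a scavenger receptor of the plasma membrane that eases the entry of fatty acids and also takes up oxidised lipoproteins. FABP4 and FABP5 are small cytosolic proteins that bind fatty acids and move them to membranes, droplets and the nucleus. In mammals FABP4 is the main carrier of adipocytes and is a target of PPARG, and FABP4, FABP5, CD36 and LPL are all also expressed by macrophages. FABP4 and FABP5 lie on the same chromosome in the chicken RefSeq annotation (GRCg7b), with 1 protein-coding gene, FABP9, between them.

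Values are deposited array signals, taken as log2, so that a difference of 1 is a doubling. They are relative to the other probe sets of an array, and levels are not compared between genes. A gene was called changed where its adjusted p in the limma fit over all 66 arrays was below 0.05. Tissue identity was read from marker lists. Collagens and other stromal transcripts were near the top of the scale in all groups (COL1A1 mean 13.28, FN1 13.41 and COL3A1 13.25). ADIPOQ, the adipocyte hormone gene, averaged 8.83 in uncultured cells and 3.93 in control cultures. PLIN1, which coats droplets of mature adipocytes, averaged 3.07 over all arrays, below the array median of 4.17, though it passed the filter. The summed level of 11 adipocyte markers did not fall in the same way. Its medians were 12.41 in uncultured cells, 12.52 in control and 12.64 in oleate cultures. DLK1, a preadipocyte marker, was on the array but passed the filter in no group. The summed level of 18 macrophage markers ran from 14.90 to 15.27 in uncultured cells, from 10.78 to 12.86 in control and from 11.14 to 13.00 in oleate cultures. Control arrays from 12 to 120 h have names joined by low bars in the labels and oleate arrays have dotted names, save 1 oleate array with no name. The 96 control probe sets were fitted apart and adjusted over those alone, here and below. All 36 probe sets for poly-A spike-in RNA among them were called lower in oleate than in control arrays, with a median difference of −0.60. Oleate and this split of the control and oleate arrays cannot be told apart.

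The level of 3 of the 4 genes spanned a wide range. Group means of CD36 covered 6.16 log2 units, those of FABP4 covered 5.53 and those of FABP5 covered 4.69, while those of LPL covered 1.22. FABP4, FABP5 and LPL had their highest mean in lean cells at −12 h, at 12.63, 9.12 and 7.38. CD36 had its highest mean, 10.31, in uncultured fat cells. The lowest means were at 120 h: 7.10 for FABP4 in fat control cells, 4.43 for FABP5 and 4.16 for CD36 in lean control cells, and 6.16 for LPL in lean oleate cells. When the 22 groups were ordered by mean, most neighbours could not be separated. The gap between neighbours exceeded their pooled SD in 1 of 21 steps for FABP4, in 3 of 21 for CD36 and in 0 of 21 for FABP5 and for LPL. Only 1 neighbouring pair had arrays that did not overlap, CD36 in lean oleate cells at 12 h and at 24 h. Since these are bulk cells, fewer cells of an expressing type and less RNA per cell cannot be told apart in any of the values.

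**Figure D1:**
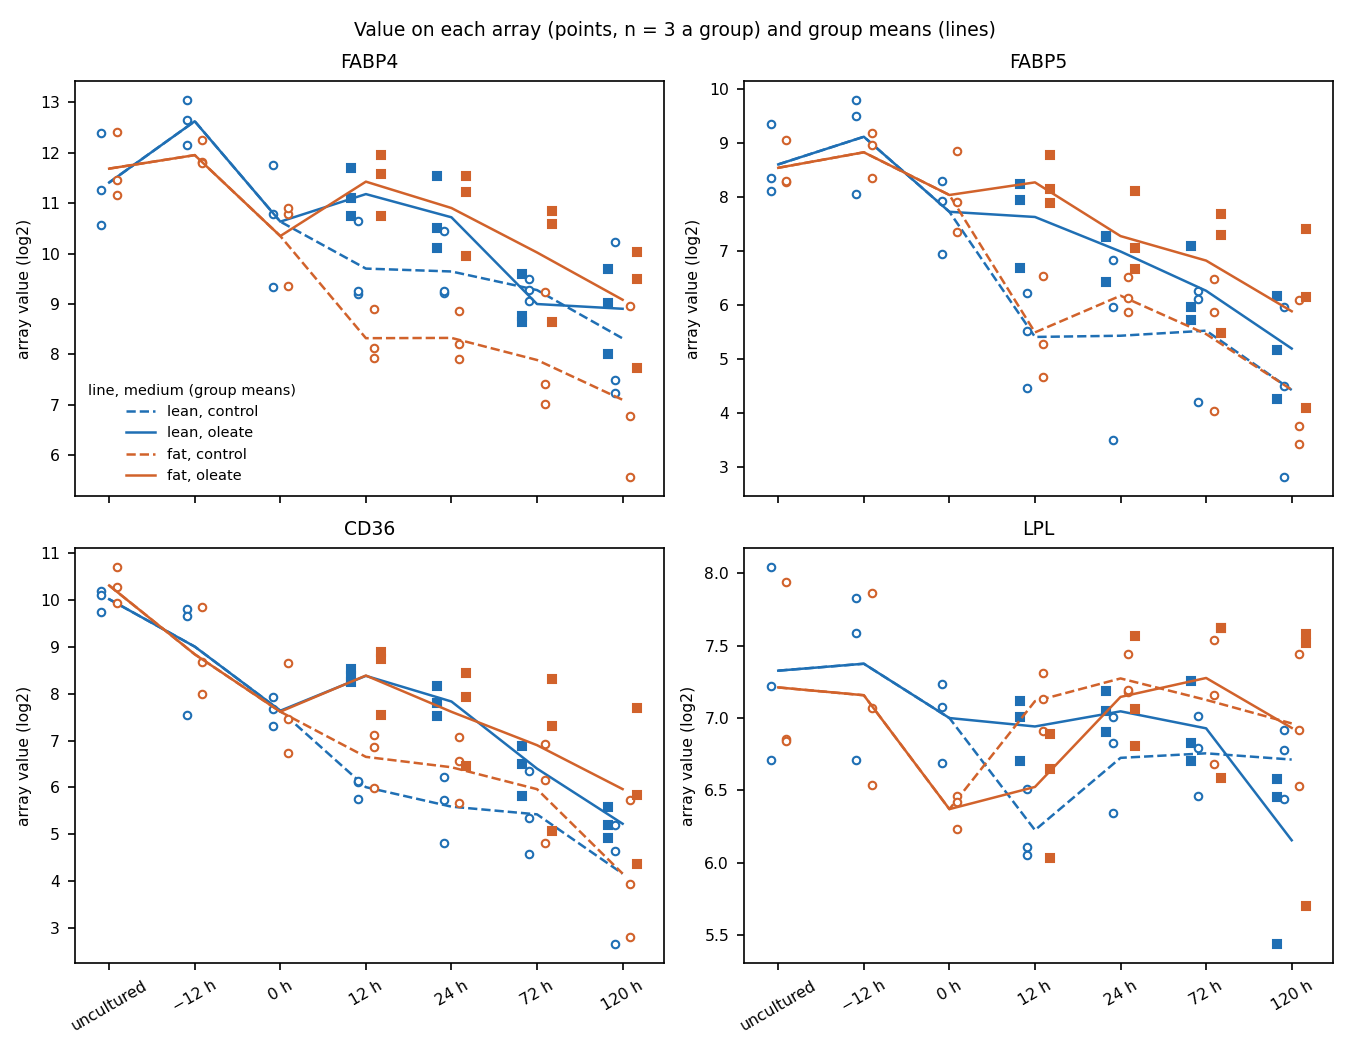
Array values (log2) of the 4 genes by stage of culture, with stages spaced evenly on the horizontal axis. Blue is the lean and orange the fat line, open circles are arrays without oleate, filled squares are oleate arrays (n = 3 a group), and lines join group means. FABP4, FABP5 and CD36 lie lowest in late control cultures and higher with oleate at 12 h in both lines, while the LPL means stay within 1.22 log2 units.

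LPL, the lipase that acts outside the cell, was the steadiest member. Before culture it read 7.22, 8.05 and 6.71 in lean cells and 7.94, 6.85 and 6.84 in fat cells. At −12 h it read 7.83, 7.59 and 6.71 in lean and 7.87, 7.07 and 6.54 in fat cells, and at 0 h 7.08, 7.23 and 6.69 in lean and 6.46, 6.42 and 6.23 in fat cells. The fat arrays at 0 h all lay below the lean ones. Lean control cultures read 6.51, 6.05 and 6.11 at 12 h, 6.83, 7.01 and 6.34 at 24 h, 7.01, 6.80 and 6.46 at 72 h and 6.78, 6.44 and 6.92 at 120 h. Fat control cultures read 7.31, 6.91 and 7.13 at 12 h, 7.45, 7.18 and 7.19 at 24 h, 7.54, 6.68 and 7.16 at 72 h and 7.44, 6.53 and 6.92 at 120 h. Fat control arrays at 12 h and 24 h were all above the lean control arrays of the same hour. Lean oleate cultures read 7.01, 7.11 and 6.70, then 7.05, 6.90 and 7.19, then 6.70, 7.25 and 6.83, then 6.45, 6.58 and 5.44 at the same 4 hours. Fat oleate cultures read 6.65, 6.03 and 6.89, then 7.57, 7.06 and 6.81, then 7.62, 7.62 and 6.59, then 7.58, 7.52 and 5.70. At 120 h replicate 3 was the lowest oleate array in both lines.

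Over all 4 hours the oleate and control arrays of LPL overlapped. The means with and without oleate were 6.87 and 6.86 (n = 24 arrays each), a log2 difference of 0.01 ± 0.13 (SE, 95% interval −0.26 to 0.27, limma adjusted p = 0.977). The difference was 0.16 ± 0.19 in lean cells (adjusted p = 0.595) and −0.15 ± 0.19 in fat cells (adjusted p = 0.598). At single hours it lay between −0.59 and 0.72, with 4 positive and 4 negative of 8. At 12 h the lean oleate arrays were all above and the fat oleate arrays all below their controls, with differences of 0.72 ± 0.37 (limma adjusted p = 0.336) and −0.59 ± 0.37 (adjusted p = 0.393), neither of which was called.

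CD36, the membrane receptor, was the member that fell furthest from tissue to culture. Uncultured lean cells read 9.74, 10.20 and 10.12, and uncultured fat cells 10.71, 9.94 and 10.29. At −12 h the values were 9.81, 9.67 and 7.54 in lean and 9.86, 8.69 and 7.99 in fat cells, and at 0 h they were 7.68, 7.93 and 7.30 in lean and 8.66, 7.45 and 6.74 in fat cells. All 6 arrays at 0 h lay below all 6 uncultured arrays. In lean control cultures CD36 read 6.13, 6.14 and 5.75 at 12 h, 5.73, 6.23 and 4.81 at 24 h, 6.36, 5.35 and 4.57 at 72 h and 5.19, 4.63 and 2.65 at 120 h. In fat control cultures it read 6.87, 5.98 and 7.11, then 6.57, 5.66 and 7.07, then 6.92, 4.82 and 6.15, then 5.72, 2.81 and 3.94. Its spread between replicates widened to an SD of 1.34 and 1.47 at 120 h. With oleate the lean cultures read 8.38, 8.52 and 8.25 at 12 h, 8.17, 7.53 and 7.80 at 24 h, 6.50, 6.88 and 5.82 at 72 h and 5.57, 5.19 and 4.91 at 120 h. The fat oleate cultures read 8.88, 8.74 and 7.54, then 8.45, 7.94 and 6.46, then 8.32, 7.31 and 5.08, then 7.70, 5.84 and 4.35. Replicate 3 was the lowest fat oleate array at each of the 4 hours. Oleate and control arrays were apart at 12 h in both lines and at 24 h in the lean line.

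Mean CD36 was 7.09 with oleate and 5.55 without (n = 24 each), a log2 difference of 1.54 ± 0.26 (95% interval 1.01 to 2.07, limma adjusted p = 7.32e-06), which is 2.91-fold. It was higher in both lines, by 1.67 ± 0.37 in lean cells (adjusted p = 0.000806) and by 1.42 ± 0.37 in fat cells (adjusted p = 0.00356). The fat-line call was lost without the control series of replicate 2 (0.92, adjusted p = 0.0958) and without the oleate series of replicate 1 (0.86, adjusted p = 0.113). The second CD36 probe set gave 1.57 ± 0.27 (limma adjusted p = 1.05e-05). Both probe sets tracked each other over the 66 arrays with r = 0.981, and the first read higher on 64 of them.

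FABP4, the adipocyte fatty acid carrier, had its highest values at −12 h. It read 11.26, 12.39 and 10.58 in uncultured lean cells and 12.42, 11.17 and 11.47 in uncultured fat cells. At −12 h it read 12.66, 13.05 and 12.16 in lean and 11.81, 12.26 and 11.79 in fat cells, and at 0 h 9.34, 11.77 and 10.79 in lean and 10.78, 10.91 and 9.35 in fat cells. All arrays at 0 h lay below all those at −12 h. Lean control cultures read 9.19, 10.65 and 9.26 at 12 h, 9.23, 10.45 and 9.26 at 24 h, 9.50, 9.28 and 9.05 at 72 h and 10.23, 7.49 and 7.23 at 120 h. Fat control cultures read 8.90, 8.13 and 7.93, then 8.86, 8.21 and 7.90, then 9.24, 7.40 and 7.01, then 8.96, 6.77 and 5.56. Replicate 1 was the highest fat control array at all 4 hours. Lean oleate cultures read 10.75, 11.10 and 11.69 at 12 h, 10.50, 10.11 and 11.54 at 24 h, 8.76, 8.64 and 9.60 at 72 h and 8.01, 9.01 and 9.69 at 120 h. Fat oleate cultures read 11.58, 11.95 and 10.75, then 11.21, 11.54 and 9.96, then 10.59, 10.84 and 8.63, then 9.49, 10.03 and 7.73. At 12 h no oleate array of either line overlapped its controls, and at 24 h this held in the fat line.

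Mean FABP4 was 10.15 with oleate and 8.57 without (n = 24 each), a log2 difference of 1.58 ± 0.26 (95% interval 1.06 to 2.11, limma adjusted p = 4.39e-06), which is 3.00-fold. In fat cells the difference was 2.45 ± 0.37, or 5.47-fold (adjusted p = 1.51e-06). In lean cells it was 0.72 ± 0.37 and was not called (95% interval −0.03 to 1.46, adjusted p = 0.176).

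FABP5, the epidermal-type carrier that macrophages and many other cells express, ran close to CD36. It read 8.35, 9.36 and 8.12 in uncultured lean cells and 9.06, 8.27 and 8.30 in uncultured fat cells. At −12 h it read 9.81, 9.50 and 8.05 in lean and 9.18, 8.96 and 8.36 in fat cells, and at 0 h 7.93, 8.30 and 6.96 in lean and 8.86, 7.91 and 7.35 in fat cells. Arrays of these 3 stages overlapped. Lean control cultures read 5.53, 6.24 and 4.47 at 12 h, 5.97, 6.84 and 3.50 at 24 h, 6.26, 6.12 and 4.21 at 72 h and 5.97, 4.51 and 2.81 at 120 h. Fat control cultures read 5.27, 4.68 and 6.54, then 6.13, 5.87 and 6.53, then 6.49, 4.04 and 5.87, then 6.09, 3.44 and 3.77. Replicate 3 of the lean controls was the lowest of its group at every hour. With oleate, lean cultures read 8.25, 7.95 and 6.70 at 12 h, 7.26, 7.29 and 6.44 at 24 h, 5.97, 7.11 and 5.73 at 72 h and 5.17, 6.17 and 4.26 at 120 h. Fat oleate cultures read 8.78, 8.16 and 7.89, then 8.12, 7.06 and 6.66, then 7.69, 7.31 and 5.49, then 7.41, 6.16 and 4.10. Oleate and control arrays were apart at 12 h in both lines and at 24 h in the fat line, and they overlapped at the other hours.

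Mean FABP5 was 6.80 with oleate and 5.30 without (n = 24 each), a log2 difference of 1.50 ± 0.29 (95% interval 0.92 to 2.08, limma adjusted p = 5.03e-05), which is 2.83-fold. It was called in lean cells at 1.32 ± 0.41 (adjusted p = 0.0157) and in fat cells at 1.67 ± 0.41 (adjusted p = 0.00163). The lean call ended without the control series of replicate 3 (0.60, limma adjusted p = 0.343) or the oleate series of replicate 1 (1.25, adjusted p = 0.069) or 2 (1.02, adjusted p = 0.121). The second FABP5 probe set was at the floor of the scale on 52 of 66 arrays, with a mean of 0.61, and was not tested.

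In all, 3 of the 4 genes were called higher with oleate, where 35% of the 22060 tested probe sets were called in either direction. By line the count was 2 of 4 in lean cells, against 20.3% of probe sets, and 3 of 4 in fat cells, against 25.5%. On means of culture series over the 4 hours, 0 of 4 was called in lean cells, where 1402 of the 22060 probe sets were called. In fat cells only FABP4 was called on these means, where 2248 of the 22060 were. A difference between array name styles can be measured only as the fat minus lean difference at 0 h less that at −12 h, since of these 12 arrays the fat ones at −12 h alone have low bars, and it holds any unequal change of the lines with confluence too. With it subtracted, the oleate differences were 1.20 ± 1.1 for FABP4, 0.90 ± 1.2 for FABP5 and 1.40 ± 1.1 for CD36. None was called (limma adjusted p = 0.776, 0.864 and 0.721). Without the subtraction the SEs were 0.26, 0.29 and 0.26. With the wider SEs the fit cannot say how much of each difference goes with name style. In the main fit, without the subtraction, PLIN2, the droplet coat protein, had a difference of 1.86 ± 0.10 (limma adjusted p = 5.04e-20). Its difference with the subtraction is not given, so it cannot be set against the subtracted values.

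**Figure D2:**
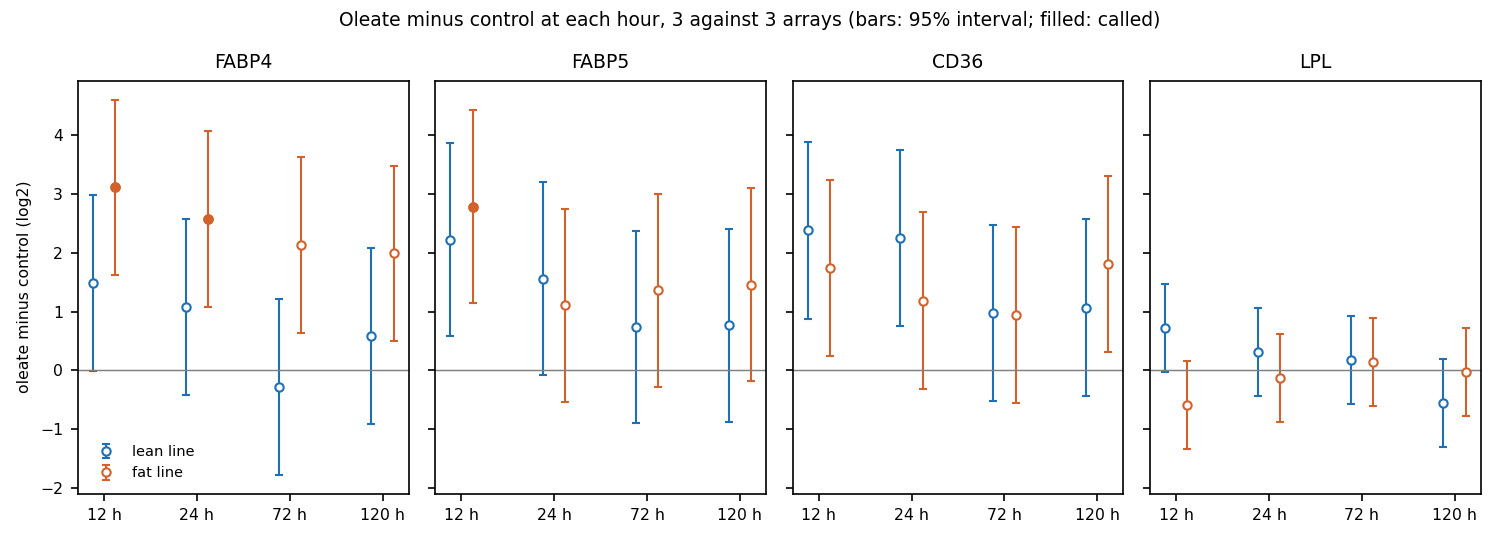
Oleate minus control (log2) at each hour for the lean (blue) and fat (orange) line, 3 against 3 arrays, with 95% intervals and filled points for called differences. Called points are FABP4 in fat cells at 12 and 24 h and FABP5 in fat cells at 12 h. FABP5 and CD36 lie above 0 at all 8 line-hours.

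Hour by hour, the largest differences of FABP4 and FABP5 in both lines, and of CD36 in lean cells, stood at 12 h. CD36 in fat cells differed by 1.74 ± 0.74 at 12 h and by 1.81 ± 0.74 at 120 h. In fat cells FABP4 was higher by 3.11 ± 0.74 at 12 h (8.61-fold, limma adjusted p = 0.0057) and by 2.58 ± 0.74 at 24 h (adjusted p = 0.0393). FABP5 in fat cells was higher by 2.78 ± 0.81 at 12 h (6.86-fold, limma adjusted p = 0.0288). These 3 were the differences called at single hours for the 4 genes in the fit to all arrays. Left out one at a time, 5 of the 6 arrays behind the FABP4 difference at 24 h, 4 of the 6 behind FABP5 at 12 h and 1 of the 6 behind FABP4 at 12 h ended the call. FABP4 at 24 h also lost its call without the filter (limma adjusted p = 0.0646) and with only the groups compared (adjusted p = 0.0611). With the name style shift subtracted all 3 calls were lost. FABP4 in fat cells was then 2.72 ± 1.28 at 12 h and 2.19 ± 1.28 at 24 h (limma adjusted p = 0.943 and 0.712). FABP5 in fat cells was 2.18 ± 1.41 at 12 h (limma adjusted p = 0.991). CD36 in lean cells at 12 h, 2.38 ± 0.74 (limma adjusted p = 0.0641), was called under 6 of 13 alternatives, with adjusted p from 0.00177 to 0.0472. Among these 6 was the block for replicate number (adjusted p = 0.0064). This CD36 difference was not called under the other 7, with adjusted p up to 0.491. The second CD36 probe set, 1 of these 7, gave 2.13 ± 0.77 (adjusted p = 0.126). The share of all probe sets called at 12, 24, 72 and 120 h was 3.38%, 2.2%, 2% and 4.96% in lean cells and 6.39%, 3.25%, 4.67% and 3.28% in fat cells. FABP4 differences in fat cells at 72 and 120 h, 2.13 ± 0.74 and 1.99 ± 0.74, were not called (limma adjusted p = 0.0885 and 0.148). In lean cells the FABP4 difference was 1.48, 1.08, −0.28 and 0.59 at the 4 hours, with none called. CD36 was positive at all 8 line-hours, from 0.94 to 2.38, and FABP5 at all 8, from 0.74 to 2.78. Oleate and control arrays were apart at 3 of 8 line-hours each for FABP4, FABP5 and CD36 and at 2 of 8 for LPL. The share of all probe sets apart is not given, at a line-hour or in any other comparison. These counts therefore describe the arrays and do not set the 4 genes apart from other probe sets.

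Whether the oleate difference itself differed by line or hour was tested directly. The FABP4 difference was 1.73 ± 0.52 larger in fat than in lean cells (95% interval 0.68 to 2.79), short of the threshold at a limma adjusted p of 0.0715, where 1.85% of probe sets passed. Leaving single arrays aside, it passed in 5 of 24 alternatives. It passed with array weights (2.36, adjusted p = 0.000327), which were 6.36, 0.52 and 0.32 for the lean oleate arrays at 120 h. A block for replicate number, which ties control to oleate arrays of the same number, gave a limma adjusted p of 0.0213. Over all tested probe sets, deviations of such arrays from their group means correlated by 0.011 on average, from −0.21 to 0.28. That average does not show the pairing, and the labels do not say what a number stands for. The FABP4 difference also passed without the fat control series of replicate 1 (2.28, adjusted p = 0.00905), the fat oleate series of replicate 3 (2.28, adjusted p = 0.00655) or the lean oleate series of replicate 3 (2.08, adjusted p = 0.0359). In the other 19 it was not called, among them the fit on series means, where 2 of 22060 probe sets passed. Of the 36 spike-in probe sets 33 were called lower in the same comparison, with a median of −0.61, and their part was not tested. For FABP5, CD36 and LPL the same comparison gave 0.35 ± 0.58, −0.25 ± 0.53 and −0.31 ± 0.26, with adjusted p from 0.61 to 0.869. From 12 to 120 h the oleate difference moved by −1.01 ± 0.74 for FABP4, −1.39 ± 0.81 for FABP5, −0.62 ± 0.74 for CD36 and −0.36 ± 0.37 for LPL. None of these passed (limma adjusted p from 0.734 to 0.918), and 0.304% of probe sets did.

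**Figure D3:**
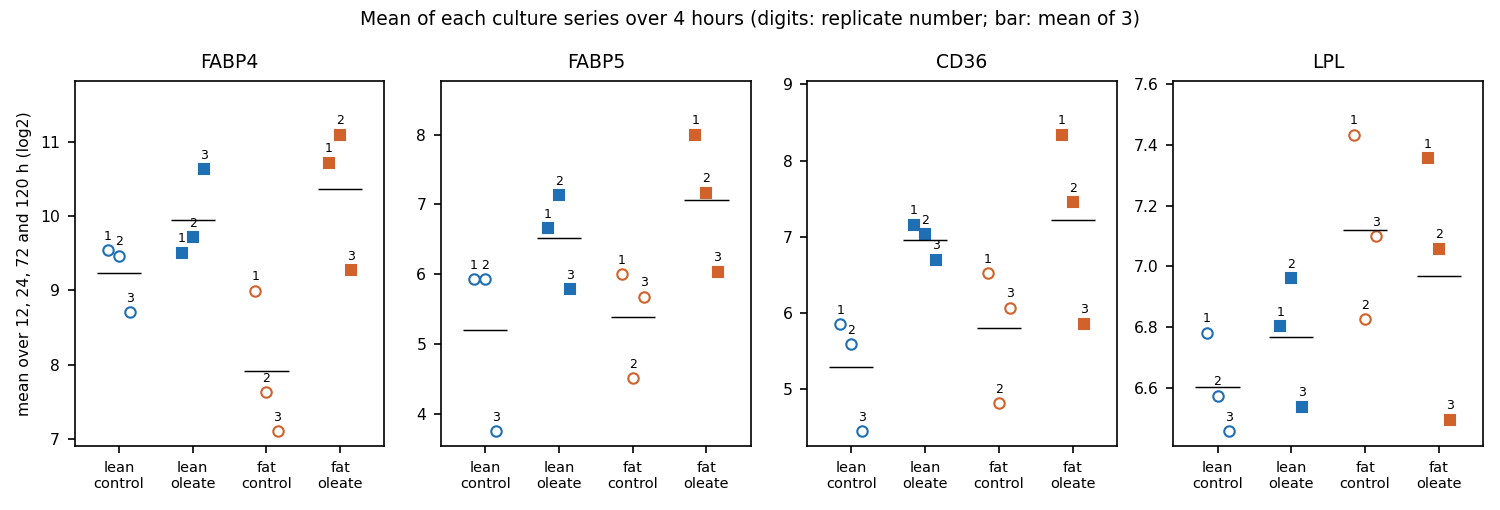
Mean of each gene over the 4 hours (log2) for the 12 culture series, with the replicate number beside each point and a bar at the mean of 3. All fat oleate series lie above all fat control series for FABP4 and FABP5, and all lean oleate series above all lean control series for CD36.

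Arrays of the same line, medium and replicate number deviated together from their group means. Over all tested probe sets the mean residual correlation was 0.179 between hours of a control series (36 pairs) and 0.212 between hours of an oleate series (36 pairs). Between a control and an oleate array with the same line and number it was 0.011 (96 pairs). Arrays at 0 h went with oleate series (0.207, 24 pairs) and not with control series (0.011, 24 pairs). Hours of a series are thus not fully independent, and each series was also reduced to its mean over 4 hours.

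FABP4 series means were 9.54, 9.46 and 8.70 in lean control, 9.51, 9.71 and 10.63 in lean oleate, 8.99, 7.63 and 7.10 in fat control and 10.72, 11.09 and 9.27 in fat oleate cells. FABP5 series means were 5.93, 5.93 and 3.75 in lean control, 6.66, 7.13 and 5.78 in lean oleate, 6.00, 4.51 and 5.68 in fat control and 7.999, 7.17 and 6.04 in fat oleate cells. CD36 series means were 5.85, 5.59 and 4.44 in lean control, 7.15, 7.03 and 6.70 in lean oleate, 6.52, 4.82 and 6.07 in fat control and 8.34, 7.46 and 5.86 in fat oleate cells. The groups were apart for FABP4 and FABP5 in fat cells and for CD36 in lean cells, and overlapped elsewhere. The share of all probe sets whose series are apart is not given. LPL series means ran from 6.46 to 7.43, with both groups of each line overlapping. Exchanging oleate and control series within lines (400 arrangements, smallest possible p = 0.005) gave exact two-sided permutation p-values of 0.01 for FABP4, 0.025 for FABP5, 0.015 for CD36 and 0.96 for LPL. In the same test within a line, the smallest possible p is 0.1, reached by FABP4 and FABP5 in fat and CD36 in lean cells. The exact permutation p was 0.2 for FABP4 and 0.3 for FABP5 in lean cells and 0.3 for CD36 in fat cells. LPL had 0.4 in lean and 0.6 in fat cells. In the limma fit on series means the FABP5 difference of 1.50 ± 0.51 was no longer called (adjusted p = 0.074). By line, FABP4 in fat cells kept its call on series means. FABP5 lost its call in lean and fat cells (limma adjusted p = 0.339 and 0.186), and so did CD36 (adjusted p = 0.181 and 0.213).

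The step from 0 h to 12 h was compared in each medium. From 0 h to 12 h in control medium FABP5 fell by 2.43 ± 0.58 on the log2 scale (limma adjusted p = 0.00225), and the 6 arrays of each hour did not overlap. FABP4 fell by 1.48 ± 0.52 (limma adjusted p = 0.0431), a call that 8 of the 12 single arrays ended when left out. CD36 differed by −1.30 ± 0.53 and was not called (limma adjusted p = 0.0809). LPL differed by −0.01 ± 0.26. Of the 4 genes 2 were called, where 17.5% of probe sets were. From 0 h to 12 h in oleate the differences were 0.81 ± 0.52 for FABP4, 0.07 ± 0.58 for FABP5, 0.76 ± 0.53 for CD36 and 0.05 ± 0.26 for LPL. None of the 4 was called, and 0.549% of probe sets were. The FABP5 interval was −1.09 to 1.23, so a rise or fall of about 1 unit lies within it. As the 0 h arrays deviate together with the oleate series and not with the control series, medium and series cannot be told apart in the control step. All 36 spike-in probe sets were called higher in that step and 0 in the oleate step. PLIN2 rose in the same oleate step, by 1.50 (limma adjusted p = 1.52e-05).

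**Figure D4:**
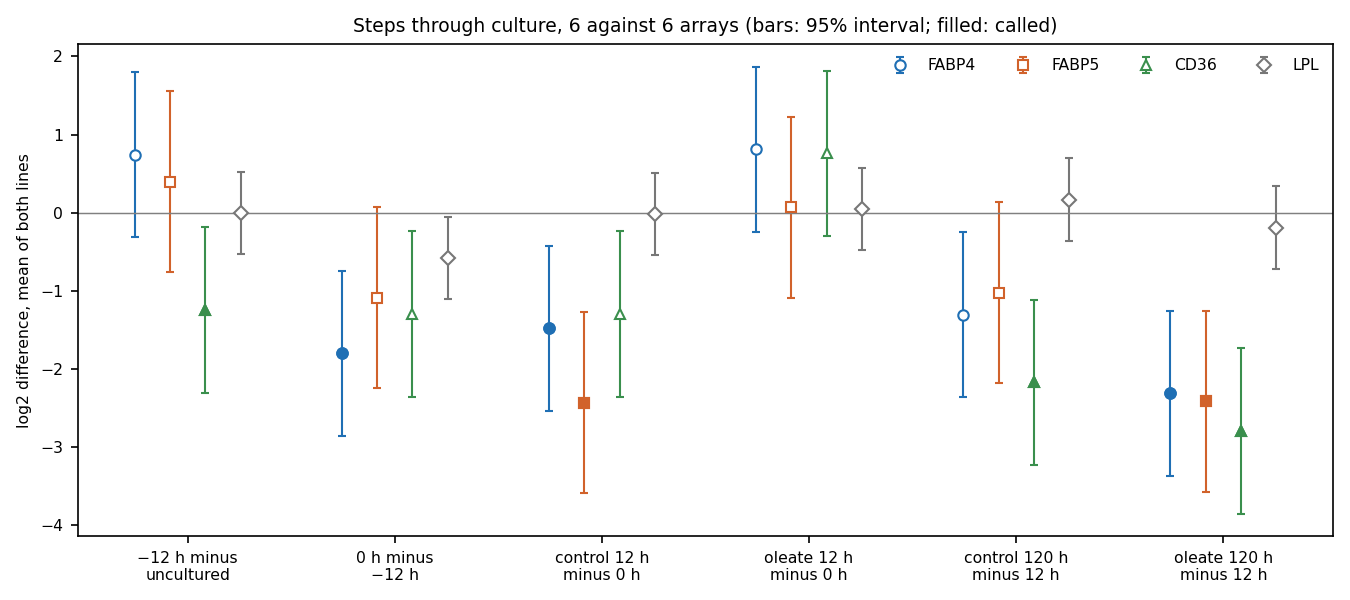
Log2 differences of the 4 genes at 6 steps, as the mean of both lines (6 against 6 arrays), with 95% intervals and filled points for called differences. In the first 12 h FABP4 and FABP5 are called lower in control medium and no gene is called in oleate. FABP4, FABP5 and CD36 are called lower from 12 to 120 h in oleate.

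CD36 was the member with the largest differences between uncultured and cultured cells. From uncultured cells to −12 h CD36 fell by 1.24 ± 0.53 (limma adjusted p = 0.035), and the other 3 differed by 0.74 ± 0.52 for FABP4, 0.40 ± 0.58 for FABP5 and −0.00 ± 0.26 for LPL without a call. This step had 67.2% of probe sets called. In fat cells the step also goes from dotted to low-bar array names, and stage and name style cannot be told apart. The CD36 call ended when any of 6 single arrays was left out and with the second CD36 probe set (−1.07 ± 0.55, adjusted p = 0.0804). From uncultured cells to 0 h CD36 fell by 2.54 ± 0.53, or 5.81-fold (limma adjusted p = 3.87e-05), and LPL fell by 0.58 ± 0.26 (adjusted p = 0.045), with 68.9% of probe sets called. The LPL call was ended by leaving out any of 8 of the 12 arrays. FABP4 and FABP5 differed by −1.06 ± 0.52 and −0.69 ± 0.58 at 0 h (limma adjusted p = 0.0702 and 0.289). Centring the arrays on 5 reference genes moved the median of all probe sets by −0.50 in the −12 h and −0.43 in the 0 h comparison with uncultured cells, and FABP4 at 0 h was then called lower (−1.49, adjusted p = 0.0102). At −12 h and at 0 h 27.6% and 28.1% of probe sets were called lower. So were 13 and 15 of 18 macrophage markers, 12 and 14 of 16 endothelial markers and 9 and 9 of 11 lymphocyte markers. Stromal markers were called lower in 9 and 11 of 14 and erythroid markers in 4 and 5 of 7. Adipocyte markers had 2 and 3 of 11 lower and 4 and 4 higher, and muscle markers 1 and 1 of 3 lower and 2 and 2 higher. Of all probe sets, 39.6% at −12 h and 40.8% at 0 h were called higher. A marker bright only in uncultured cells can pass the filter through those cells alone. The counts of lower markers in these lists were therefore partly set by the filter. Of the 36 spike-in probe sets, 33 were called lower at −12 h and 32 at 0 h than in uncultured cells, with medians of −0.55 and −0.62. The part of these cell types and of the spike-in shift in the CD36 difference was not tested.

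Between 50% and 95% confluence FABP4 fell by 1.80 ± 0.52 (limma adjusted p = 0.0141), with all arrays apart, while 15.2% of probe sets were called. Leaving out lean replicate 1 or fat replicate 3 at 0 h ended that call (−1.48 and −1.55, adjusted p = 0.0661 and 0.0573). CD36, FABP5 and LPL differed by −1.30 ± 0.53, −1.09 ± 0.58 and −0.58 ± 0.26 and were not called (limma adjusted p = 0.0895, 0.211 and 0.132). Fat arrays have low-bar names at −12 h and dotted names at 0 h. In fat cells confluence and name style therefore cannot be told apart.

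Between 12 and 120 h, 3 members fell in oleate cultures. CD36 fell by 2.79 ± 0.53 (limma adjusted p = 0.00026), FABP5 by 2.41 ± 0.58 (adjusted p = 0.00328) and FABP4 by 2.31 ± 0.52 (adjusted p = 0.00207), whereas 13.3% of probe sets were called. The 6 FABP4 arrays at 120 h were all below the 6 at 12 h. LPL differed by −0.19 ± 0.26 (limma adjusted p = 0.701). In control cultures CD36 fell by 2.17 ± 0.53 over the same time (limma adjusted p = 0.00605), and FABP4 and FABP5 differed by −1.30 ± 0.52 and −1.02 ± 0.58 without a call (adjusted p = 0.109 and 0.281), at 9.36% of probe sets. Of 18 macrophage markers, 4 were called lower over time in oleate, and in control 1 was called lower and 1 higher. Their part was not tested.

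Line differences were called in control culture. FABP4 was lower in fat than in lean control cells, 7.91 against 9.23 (n = 12 each), a log2 difference of −1.33 ± 0.37 (limma adjusted p = 0.0109). LPL was higher in fat than in lean control cells, 7.12 against 6.60, by 0.51 ± 0.19 (limma adjusted p = 0.0493). CD36 and FABP5 differed by 0.51 ± 0.37 and 0.19 ± 0.41 without a call (limma adjusted p = 0.382 and 0.8), and 16.1% of probe sets were called. Both calls depend on single series. On series means FABP4 had an adjusted p of 0.275 and LPL of 0.218 in limma, and without the fat control series of replicate 3 the FABP4 difference was −0.92 (adjusted p = 0.136). Without that of replicate 2 it was −1.19 (adjusted p = 0.0569). The LPL call ended without any of 17 of the 24 arrays. Beside these, 6 of 18 macrophage markers were called higher in fat control cells and none lower, and their summed level averaged 12.20 in fat and 11.32 in lean control cells at 12 h. ADIPOQ was lower in fat control cells (−0.98, limma adjusted p = 0.0027). The part of other cell types in the FABP4 and LPL differences was not tested.

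No line difference of the 4 genes was called elsewhere. In oleate culture the fat minus lean differences were 0.41 ± 0.37 for FABP4, 0.54 ± 0.41 for FABP5, 0.26 ± 0.37 for CD36 and 0.20 ± 0.19 for LPL, where 15.3% of probe sets were called. In uncultured cells they lay between −0.12 and 0.29, at −12 h between −0.67 and −0.16 and at 0 h between −0.63 and 0.31. The share of probe sets called was 2.85% in uncultured cells, 1.12% at −12 h and 8.08% at 0 h. Intervals at these stages were wide: that of FABP4 in uncultured cells ran from −1.22 to 1.77. At −12 h line and array name style cannot be told apart. Spike-in probe sets differed by line too. Of 36, 30 were called higher in fat uncultured cells and 28 at −12 h, with medians of 0.94 and 0.75. In oleate culture 32 were called lower in fat cells (median −0.56), and at 0 h 1 was higher and 5 lower. In control culture 0 were called. Their part was not tested.

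Over the 22 group means FABP5 and CD36 correlated with r = 0.947 (Spearman 0.945), FABP4 and FABP5 with 0.920 (0.890) and FABP4 and CD36 with 0.877 (0.886). LPL correlated with them by 0.225 to 0.440. Within groups, deviations of single arrays correlated with r = 0.847 for FABP5 and CD36, and with 0.534 and 0.556 for FABP4 against these. LPL deviations correlated with those of FABP5, CD36 and FABP4 by 0.696, 0.658 and 0.430, more than its group means did. These are descriptions, since groups share culture series, a scale and an array design.

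Among other named genes, the 5 whose group means were most like FABP5 were SPP1 (osteopontin, r = 0.950), CD36 (0.947), TM4SF19 (0.936), RBP7 (a retinol-binding relative of the FABPs, 0.933) and CSTA (a cystatin, 0.932). CD36 was most like LY86 (a partner of the toll-like receptor relative CD180, 0.974), C1QC (a complement chain made by macrophages, 0.963), IFI30 (a lysosomal reductase, 0.962), F13A1 (a clotting factor subunit, 0.956) and PLBD1 (0.955). FABP4 was most like FABP5 (0.920), RBP7 (0.916), ABCA3 (a lipid transporter, 0.910), TMTC1 (0.897) and NR3C2 (the mineralocorticoid receptor, 0.890). LPL had looser companions, with ATP6AP1 (a subunit of the vacuolar proton pump, 0.841), ASAH1 (acid ceramidase, 0.801), MYO1E (0.800), CRIM1 (0.730) and DAB2 (0.687). All are Pearson correlations over 22 group means, each on 1 probe set. Over the 66 arrays, LY86 also ranked first for CD36 (0.931), and CD36 first for FABP5 (0.922). Of the 5 genes named, 2 for FABP5, 3 for CD36 and 3 for LPL stayed among the top 5 over arrays. For FABP4, ABCA3 fell to rank 320 over arrays (0.547). By Spearman correlation over groups, 1 of the 5 genes named for FABP4, 0 for FABP5, 2 for CD36 and 2 for LPL stayed among the top 5. LY86 and C1QC are also in the list of macrophage markers used next.

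**Figure D5:**
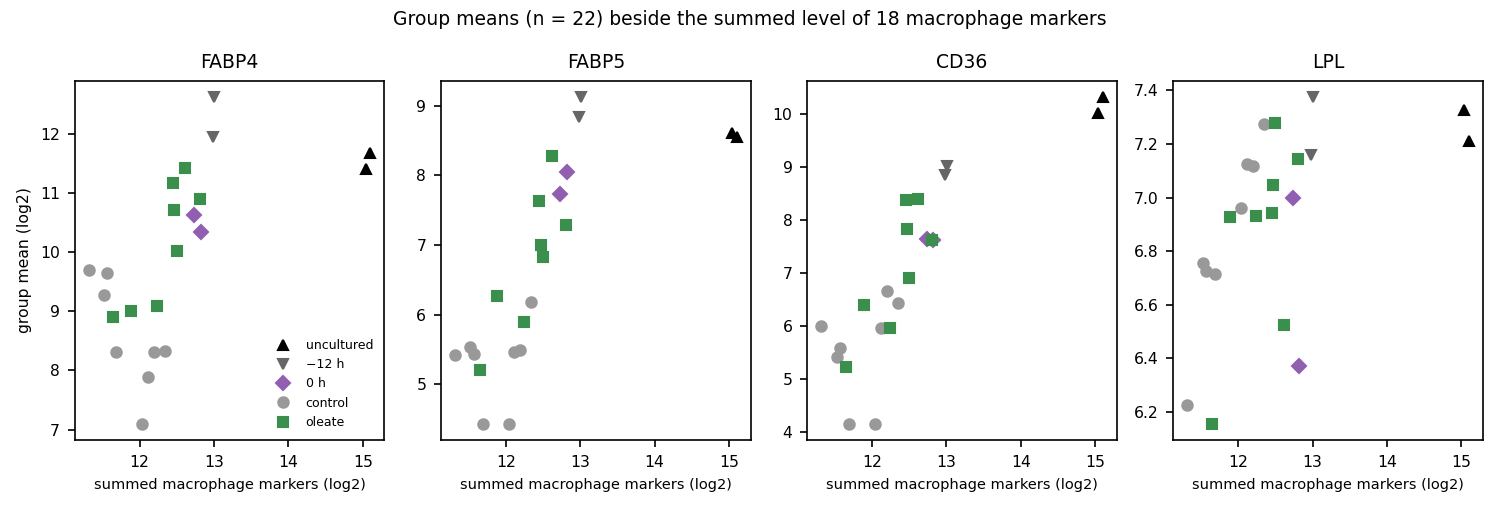
Group means of each gene (log2) beside the summed level of 18 macrophage markers (log2 of summed signal), 22 groups, with symbols for the stage or medium. Cultured groups with more marker signal have higher CD36 and FABP5 (r = 0.816 and 0.855). The 2 uncultured groups stand apart at the right of every panel.

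The 18 macrophage markers moved with the carriers to different degrees. Over 20 cultured groups the summed marker level correlated with r = 0.855 for FABP5, 0.816 for CD36, 0.649 for FABP4 and 0.533 for LPL (Spearman 0.881, 0.845, 0.687 and 0.561). With the 2 uncultured groups added the correlations were 0.749, 0.847, 0.613 and 0.532. Within groups, over deviations of the 66 arrays, they were 0.791 for FABP5, 0.688 for CD36, 0.630 for LPL and 0.171 for FABP4. The summed stromal level correlated with FABP4, FABP5 and CD36 by −0.73, −0.76 and −0.75 over the cultured groups. Groups share series and a scale, so no test is given.

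In the oleate comparison 13 of 18 macrophage markers were called higher and 0 lower, with a median of 0.74 against −0.02 for all probe sets, of which 17.4% were called higher and 17.6% lower. CTSS (cathepsin S) was higher by 0.64 ± 0.14 and C1QB by 1.04 ± 0.34 (limma adjusted p = 0.000278 and 0.0153), while LGMN (legumain) differed by 0.11 ± 0.09 (adjusted p = 0.36). TIMD4 and CSF3R were near the floor of 1.61 in culture, at 2.23 and 1.74 in control cells. From 0 h to 12 h, 9 of 18 macrophage markers were called lower in control and 0 in oleate, where 9.75% and 0.131% of probe sets were called lower. The part of macrophage markers in the oleate differences of CD36, FABP4 and FABP5 was not tested.

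Markers of other cell types were read the same way, and their counts stand against the same 17.4% of probe sets called higher and 17.6% lower. Of 16 endothelial markers 4 were higher with oleate, 0 lower, among them CLDN5 (0.47 ± 0.14, limma adjusted p = 0.00595), while ERG and LYVE1 differed by −0.18 and −0.19 without a call. Stromal markers ran the other way, with 11 of 14 lower and 2 higher, a median of −0.12 and a range from −0.63 (POSTN, periostin) to 0.42 (PDGFRA). The brightest of them, FN1, COL1A1 and COL3A1, differed by −0.04 ± 0.02, 0.14 ± 0.02 and −0.05 ± 0.02. Adipocyte markers split 2 higher and 1 lower of 11, with G0S2 at 0.02 ± 0.09, FASN at 0.06 ± 0.05 and PNPLA2, the triglyceride lipase, at −0.22 ± 0.07 (limma adjusted p = 0.0139). Erythroid markers had 1 of 7 lower (HBE, −0.50 ± 0.20), with HBAD at −0.66 ± 0.34 and CA2 at 0.09 ± 0.16, neither called. Lymphocyte markers had 1 of 11 lower (CD5), and PAX5, CD3D and CD8A were not called (0.05, 0.26 and −0.25). Skeletal muscle markers had 1 of 3 lower (TNNT3, −0.55 ± 0.09), with ACTA1 and MYH1E at −0.46 and −0.37.

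Genes around the 4 carriers were taken from 5 pathway lists. Their counts stand against 17.4% of all probe sets called higher with oleate and 17.6% lower. Among partners of lipoprotein lipase and lipoprotein receptors, 3 of 6 tested were higher with oleate and 1 lower. ANGPTL4, a secreted inhibitor of the lipase, rose by 1.52 ± 0.14, from 6.63 to 8.15 (limma adjusted p = 2.05e-12), while LPL itself differed by 0.01. VLDLR, which binds lipoproteins, rose by 0.38 ± 0.13 and LIPG, endothelial lipase, by 0.24 ± 0.07 (limma adjusted p = 0.0193 and 0.00901). LMF1, the maturation factor of the lipase, fell by 0.52 ± 0.11 (limma adjusted p = 0.00026). GPIHBP1, the endothelial anchor of the lipase in mammals, was on the array and passed the filter in no group.

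Other genes of membrane uptake split evenly, with 2 of 8 higher and 2 lower, against 17.4% and 17.6% of all probe sets. CAV1 and CAV2, the coat proteins of caveolae, rose by 0.47 ± 0.09 and 0.17 ± 0.06 (limma adjusted p = 2.93e-05 and 0.0275), and PTRF (cavin-1) and SCARB1, a lipoprotein receptor of the CD36 family, fell by 0.20 ± 0.08 and 0.28 ± 0.09 (adjusted p = 0.0468 and 0.00904). SLC27A4, a fatty acid transport protein, differed by −0.06 ± 0.05. Among other carriers 2 of 9 were higher and 0 lower, namely FABP7, the brain-type carrier, by 0.91 ± 0.10 (limma adjusted p = 3.1e-10) and FABP3, the heart-type carrier, by 0.84 ± 0.25 (adjusted p = 0.00684). FABP9, the gene between FABP4 and FABP5, differed by 0.21 ± 0.21 (limma adjusted p = 0.477).

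Acyl-CoA synthetases, which activate fatty acids after entry, had 3 of 7 higher and 0 lower, against 17.4% and 17.6% of all probe sets. ACSL1 rose by 0.92 ± 0.08 (limma adjusted p = 1.82e-14), ACSL4 by 0.38 ± 0.07 and ACSBG2 by 0.18 ± 0.07. ACSL1 also rose from 0 h to 12 h in oleate, by 0.60 (limma adjusted p = 0.0476), a step in which none of the 4 carriers was called. Among the regulators 2 of 9 were higher and 2 lower. PPARG, the nuclear receptor of adipogenesis, fell by 0.26 ± 0.09 (limma adjusted p = 0.0175) and NR1H3, a sterol-sensing receptor, by 0.12 ± 0.04, while PPARA rose by 0.20 ± 0.07 and CEBPB by 0.17 ± 0.06. List medians were between −0.09 and 0.18, against −0.02 for all probe sets, and 35% of all probe sets were called in this comparison.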

How the data were processed

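Expression was measured on 66 Affymetrix chicken arrays. The deposited values are 1 per probe set and array. The values were taken as log2 from their range, since neither the deposited header nor the labels name a scale. The submitters' processing notes name MAS5 and give neither its version nor its role. Sorted arrays differ by at most 0.0615, so levels are relative within an array. An error in the log base would scale every difference alike.

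Values were raised to a floor of 1.61 (20th percentile, median of the arrays). Probe sets were tested (22060) if in some group all 3 arrays read above their own median. Symbols came from the platform annotation, updated through RefSeq by Entrez ID. The listed markers ALAS2 and BLNK were left out, since RefSeq gives them only as synonyms of other genes. limma 3.58.1 in R 4.3.3 (with statmod 1.5.0) fitted 22 group means with trended, robust variances (44 residual degrees of freedom), adjusted by Benjamini-Hochberg over all tested probe sets. Control probe sets were fitted apart, without the variance trend, and adjusted over those alone. The main fit was checked on simulated data. The number of arrays limits the precision.

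The highest tested probe set stood for a gene. Beside the 4 members, the named genes were the 5 most alike in group means, pathway genes called with oleate, PLIN2 and the 3 brightest markers of each list, with further genes of the lists named after their values were seen. Members and lists were chosen with earlier results of these data known. The alternatives were the floor, the filter, the variance model, array weights, the arrays fitted, scaling, probe set, a replicate or series block, a name style correction and single arrays left out. Series means, whole series left out, the series block with −12 h and 0 h counted as oleate and the permutation test were added after seeing the data. No sequence was used here.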

Additional observations from a re-analysis of the deposited data

How the results depend on the processing

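No call of the 4 genes turned its sign under any alternative. With the shift between array name styles subtracted, the oleate differences were 1.20 ± 1.1 for FABP4, 0.90 ± 1.2 for FABP5 and 1.40 ± 1.1 for CD36. None was called (limma adjusted p = 0.776, 0.864 and 0.721), at SEs far wider than in the main fit. All oleate calls of these genes within a line and at single hours were lost too. On series means FABP5 was 1.50 and, in control culture, the line differences were −1.33 for FABP4 and 0.51 for LPL, none called, and the calls of FABP5 and CD36 within each line were lost. The LPL line difference of 0.51 was also not called without floor, without filter, with plain variances or with either series block. Without the filter, which adds probe sets to the adjustment, FABP4 in the first 12 h of control (−1.48), CD36 at −12 h (−1.24) and LPL at 0 h against uncultured (−0.58) lost their calls. Fitting only the groups compared ended FABP4 (−1.48) and gained CD36 (−1.30) in the first 12 h of control. CD36 with oleate in lean cells at 12 h was gained there and with a floor at the 40th percentile, and FABP4 in fat cells at 24 h was lost there and without the filter. The second CD36 probe set gave −1.07 at −12 h, not called. Array weights added calls for FABP4 in the difference of oleate effects between lines (2.36), the line difference in oleate (0.85) and time in control (−1.87), for FABP5 in the line difference in oleate (0.88) and for CD36 in the first 12 h of control (−1.38). They also added 6 oleate differences at single hours, FABP4 in fat cells at 72 and 120 h and CD36 in lean cells at 12 and 24 h and in fat cells at 12 and 120 h. Reference genes gave FABP4 −1.49 at 0 h against uncultured, now called. The cause of these shifts was not tested.

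The labels do not say whether replicate numbers pair control with oleate arrays. Over all tested probe sets the residuals of such arrays correlated by 0.011 on average. The replicate block treats them as paired. It added calls for FABP4 in the difference between lines (1.73), 0 h against uncultured (−1.06) and time in control (−1.30), for confluence in FABP5 (−1.09), CD36 (−1.30) and LPL (−0.58), and for CD36 in the first 12 h of control (−1.30). At single hours it added FABP4 in fat cells at 72 h, FABP5 in lean cells at 12 h, and CD36 in lean cells at 12 and 24 h and in fat cells at 12 and 120 h. It ended none. Line differences lie between blocks and were not fitted. Culture series as a random block added FABP4 at 0 h against uncultured (−1.06), or with −12 h and 0 h counted in the oleate series time in control (−1.30), and in both forms CD36 for confluence (−1.30), the first 12 h of control (−1.30) and oleate in lean cells at 12 h. The second form also added CD36 with oleate in lean cells at 24 h.

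Leaving out single arrays or series gave ranges of −1.50 to −0.87 for CD36 at −12 h against uncultured, −1.67 to −1.05 for CD36 and −2.08 to −1.48 for FABP4 in confluence, and −1.52 to −1.04 for CD36 and −1.80 to −1.20 for FABP4 in the first 12 h of control. The ranges were −1.34 to −0.73 for FABP4 and −0.74 to −0.40 for LPL at 0 h against uncultured, −1.78 to −0.92 for FABP4 over time in control, −1.87 to −0.92 for FABP4 and 0.36 to 0.66 for LPL in the line difference in control, and 1.33 to 2.28 for FABP4 in the difference of oleate effects between lines. The line difference of LPL in control lost its call without 17 of 24 arrays and without 4 of 6 control series, and the oleate effects of FABP4, FABP5 and CD36 over both lines kept theirs in every such fit.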
